A study of Mus musculus with 18 samples.

Results

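Genes that carry out or limit heat production in brown fat were lower in brown adipose tissue (BAT) of mice that overexpress human FXR, the farnesoid X receptor, than in BAT of wild-type controls, and did not pass the test in white adipose tissue (WAT). The genes described are 10 brown adipocyte effector genes: Dio2, Otop1, Cidea, Kcnk3, Letmd1, Letm1, Pank1, Acot11, Gmpr and Fabp3. The list was given, and a gene was measured where the platform annotation gave it a probe set with no other gene symbol, the brightest one where there were several. That held for 9 of the 10, of 19937 genes measured in this way. Gmpr, which encodes guanosine monophosphate reductase, is unnamed in the annotation of this array and has no value here. Dio2 and Otop1 were put on the list because they were far lower in FXR BAT, so their BAT differences, and what follows from them, are given as a description with no test.

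Brown adipocytes burn fatty acids in mitochondria whose inner membrane is made leaky to protons by the uncoupling protein UCP1, which turns the energy of the proton gradient into heat. Cold raises this activity through noradrenaline and cyclic AMP, and thyroid hormone made active inside the cell adds to it. The genes described here act around that core. Dio2 encodes the deiodinase that activates thyroid hormone within the cell. Otop1 encodes a proton channel, Kcnk3 a potassium leak channel of the plasma membrane that in mouse brown adipocytes restrains thermogenesis, and Cidea a protein of the lipid droplet surface. Letmd1 and Letm1 encode proteins of the inner mitochondrial membrane, the first needed for brown fat thermogenesis in mice and the second a regulator of mitochondrial ion exchange and volume. Pank1 makes the first step of coenzyme A synthesis, Acot11 encodes a thioesterase that frees fatty acids from coenzyme A and is induced by cold in mouse brown fat, and Fabp3 carries fatty acids through the cytosol. The product of Gmpr converts guanosine monophosphate into a precursor shared by guanine and adenine nucleotides, and purine nucleotides inhibit UCP1.

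There were 18 arrays, each of total RNA from 1 tissue sample: 5 of FXR BAT, 5 of control BAT, 4 of FXR WAT and 4 of control WAT. All mice were male C57BL/6J animals aged 10 weeks on chow; FXR mice carried human FXR in adipose tissue, and controls were wild type. The labels do not name the promoter of the transgene or the WAT depot, nor say if a mouse gave both tissues. For control BAT 2 and 4 the extract protocol also mentions feeding for 6 weeks. The samples of a group are called biological replicates, and no statement of separate animals is given, so p-values measure the spread between samples as labelled.

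Intensities, which the authors deposited on a linear scale, were turned into log2(intensity + 1), and every level and difference below is on that scale unless a percentage or a fold is given. Array medians were 93.1 to 99.9 in BAT and 60.5 to 61.7 in WAT. A level is called near the floor where it was under 1.5 times the 1% quantile of its array, a bound that lay at 6.24 to 6.31 for BAT arrays and at 6.09 to 6.15 for WAT arrays. By that bound 28.7% to 34.9% of probe sets were near the floor in BAT, against 58.2% to 62.8% in WAT, and changes of such genes are compressed. Array-to-array correlations within a group were 0.973 to 0.994 in FXR BAT, 0.992 to 0.995 in control BAT, 0.980 to 0.992 in FXR WAT and 0.983 to 0.992 in control WAT. Ucp1 had levels of 12.61 to 13.00 in FXR BAT, 13.09 to 13.42 in control BAT and 5.73 to 6.01 in WAT, which matches the tissue labels. The mouse gene of the receptor, Nr1h4, had levels of 6.15 to 6.31 in brown and 5.85 to 6.05 in white fat. Since the transgene is human, this does not check the genotype.

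Several libraries and cell types stood apart in BAT, and these values bear on the results that follow. The mean level of 29 skeletal muscle genes was 10.53, 9.91, 6.94, 10.57 and 8.26 on FXR BAT 1 to 5, against 7.62, 7.57, 8.47, 7.01 and 6.85 on control BAT 1 to 5. FXR BAT 1, 2 and 4 were thus higher than every control array, and 2 of the 29 genes, Myh1 and Myh2, passed the test as higher. In WAT the muscle mean was 5.96 to 6.00. The mean of 18 genes of mature adipocytes was 11.24 to 11.39 in FXR BAT and 11.44 to 11.72 in control BAT, 12 of the 18 were called lower and 0 higher. The mean of 8 brown adipocyte genes (Ucp1, Cox7a1, Cox8b, Elovl3, Zic1, Lhx8, Ebf2 and Prdm16) was 9.22 to 9.38 in FXR BAT. It was 9.71 to 9.91 in control BAT, and 5 of the 8 were called lower and 1 higher. All 20 macrophage genes rose, with list means of 7.67 to 7.81 in FXR BAT and 6.93 to 7.22 in control BAT, and 14 of 15 fibroblast genes rose, with means of 9.49 to 9.67 in FXR BAT and 8.17 to 8.71 in control BAT. Of 12 endothelial genes 1 rose and 4 fell, with list means of 8.24 to 8.56 in FXR BAT and 8.52 to 8.73 in control BAT, and among 15 white-selective adipocyte genes there were 5 called higher and 0 lower, with means of 7.44 to 7.99 in FXR BAT and 7.26 to 7.55 in control BAT. Over all genes in BAT, 8.75% were called lower and 7.01% higher. In bulk tissue, fewer cells of a type and less RNA per cell cannot be told apart.

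The promoters of Dio2 and Fabp3 are shown because, of the 8 genes with an entry in the promoter table, they alone held the half-site of the cyclic AMP response element, the DNA motif through which cold acts on many brown fat genes. The sequences are those of RefSeq (GRCm38.p6), 250 bases before to 50 after the annotated start, in lower case. Capitals mark the half-site TGACG, within its palindrome TGACGTCA where that was present, and the TATA box TATAAA. Dio2 lies on chromosome 12, minus strand, at chr12:90724552-90739038 with the window at chr12:90738989-90739288, and Fabp3 on chromosome 4, plus strand, at chr4:130308738-130315463 with the window at chr4:130308488-130308787.
Dio2: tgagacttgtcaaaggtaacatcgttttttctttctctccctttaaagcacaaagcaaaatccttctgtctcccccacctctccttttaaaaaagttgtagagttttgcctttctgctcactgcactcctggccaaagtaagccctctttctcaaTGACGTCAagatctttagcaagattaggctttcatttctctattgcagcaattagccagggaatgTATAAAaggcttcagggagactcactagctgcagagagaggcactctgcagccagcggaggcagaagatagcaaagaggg
Fabp3: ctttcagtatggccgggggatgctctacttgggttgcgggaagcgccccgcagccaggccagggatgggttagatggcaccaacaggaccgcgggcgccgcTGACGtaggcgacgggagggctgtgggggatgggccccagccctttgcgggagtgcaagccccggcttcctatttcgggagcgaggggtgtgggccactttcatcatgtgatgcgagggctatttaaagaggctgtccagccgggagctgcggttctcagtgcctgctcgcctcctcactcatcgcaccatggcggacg
The palindrome of Dio2 ran from base -95 to base -88 and its TATA box from -30 to -25, where -1 is the base before the start. The half-site of Fabp3 ran from -149 to -145. Among 32851 RefSeq promoters of this length, the half-site was present on either strand in 20.8%, the palindrome in 1.79% and the TATA box in 13.6%. The nuclear receptor half-site AGGTCA, present in 16.3% of promoters, was found in Letmd1 (-201 to -196) and Gmpr (-152 to -147), and TATAAA also in Pank1 (-35 to -30, and -234 to -229 on the other strand). The direct repeat AGGTCANAGGTCA (0.0396% of promoters), the inverted repeat AGGTCANTGACCT (0.00913%) and the extended half-site TCAAGGTCA (0.423%), searched on both strands, were in no window of these genes. The repeats contain AGGTCA, and TGACG lies inside the palindrome. A match is a stretch of letters and does not show binding. In the same build Otop1 lies at chr5:38277404-38304217, Kcnk3 at chr5:30588170-30625270, Letm1 at chr5:33739673-33782717, Letmd1 at chr15:100462421-100479252, Pank1 at chr19:34806935-34883423, Acot11 at chr4:106744555-106805007 and Gmpr at chr13:45507428-45546386.

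**Figure D1:**
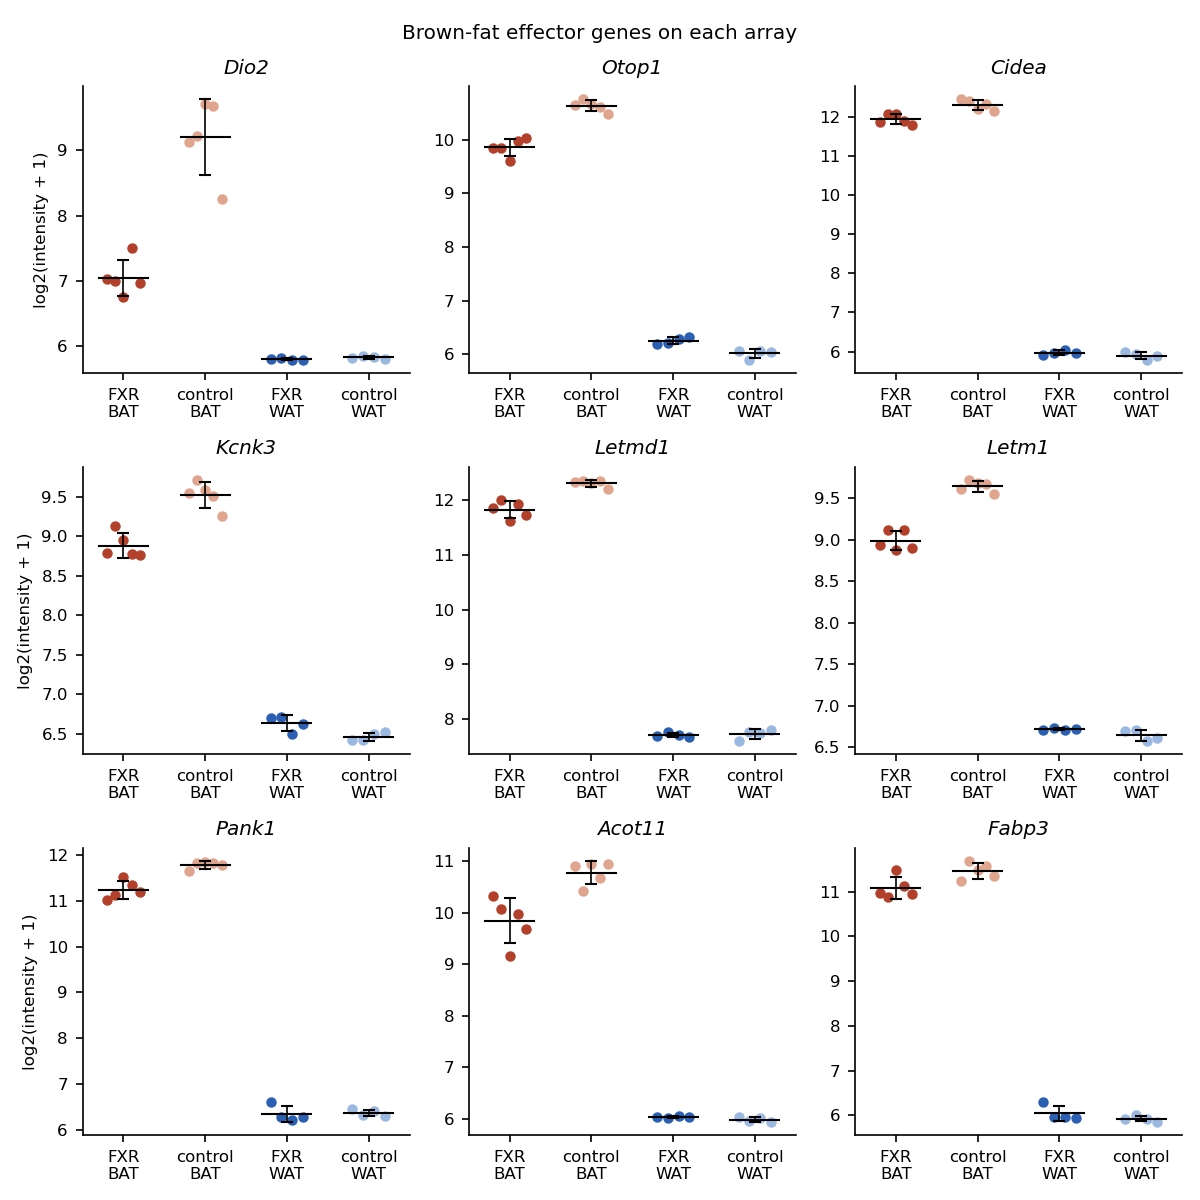
Level of the 9 measured genes on each array, as log2(intensity + 1) on the vertical axis, with FXR and control BAT and FXR and control WAT side by side; points are arrays and bars are the mean ± SD of a group. In BAT the FXR arrays of all genes but Fabp3 lie below every control array, while WAT levels lie below those of BAT for all 9 genes and near the floor of the array for Dio2, Cidea and Acot11.

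The comparison of FXR with control BAT asked how these effector genes stood in brown fat with raised FXR. Dio2, the hormone-activating enzyme, had levels of 7.02, 6.99, 6.76, 7.50 and 6.97 on FXR BAT 1 to 5, against 9.13, 9.22, 9.70, 9.68 and 8.26 on control BAT 1 to 5. The groups did not overlap, and control BAT 5 was the lowest of the controls. In intensity units Dio2 averaged 133 ± 27.5 in FXR BAT and 622 ± 216 in control BAT (SD, n = 5 each), a coefficient of variation of 20.6% in FXR and 34.8% in control. The difference was -2.15 ± 0.25 (SE), which is 22.5% of the control level or 4.44-fold lower, and placed Dio2 at rank 2 from the lowest of 19937 genes. These values chose the gene and carry no test.

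Otop1, the proton channel gene, was also chosen by its values. It had 9.85, 9.85, 9.61, 9.96 and 10.02 in FXR BAT and 10.64, 10.75, 10.65, 10.61 and 10.47 in control BAT, with no overlap. Its difference of -0.77 ± 0.08 is 58.6% of the control level, at rank 36 from the lowest. The spread of Otop1 was small, with an SD of 0.16 in FXR and 0.10 in control BAT.

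The other 7 measured genes were tested in limma across all genes. All 7 passed as lower in FXR BAT at an adjusted p under 0.05, where 8.75% of all genes were called lower and 7.01% higher, or 15.8% in either direction. The FXR and control arrays of 6 of these 7 genes did not overlap, against 6.29% of all genes with no overlap in that direction. The differences of these 7 tested genes ran from -0.93 (Acot11) to -0.37 (Cidea), where the median over all genes was 0.01. A list whose members were known brown fat genes is not independent evidence of its direction, since its members were chosen with results of these data known.

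Among the membrane and lipid droplet proteins, Kcnk3 had 8.79, 9.13, 8.95, 8.78 and 8.76 in FXR BAT and 9.55, 9.71, 9.59, 9.51 and 9.26 in control BAT. The potassium channel gene was thus lower in every FXR array, and fell by 0.64 ± 0.09 (adjusted p = 9.56e-04, limma with Benjamini-Hochberg), to 64.1% of control. Cidea, for the lipid droplet protein (chr18:67343564-67367794), had 11.86, 12.07, 12.08, 11.89 and 11.80 in FXR BAT and 12.45, 12.41, 12.19, 12.33 and 12.15 in control BAT. The groups came closest at FXR BAT 3 and control BAT 5 but did not overlap. Its difference of -0.37 ± 0.07 (adjusted p = 0.00643, limma) left 77.5% of the control level. That call of Cidea was lost without FXR BAT 1, 2 and 4 (adjusted p = 0.0524, limma) and without control BAT 2 and 4 (adjusted p = 0.0635, limma).

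Both genes of the inner mitochondrial membrane fell. Letm1, the regulator of ion exchange, had the smallest adjusted p, with 8.94, 9.12, 8.88, 9.11 and 8.91 in FXR BAT and 9.62, 9.72, 9.68, 9.67 and 9.55 in control BAT. It fell by 0.66 ± 0.06 to 63.5% of control (adjusted p = 5.37e-05, limma). Letmd1, needed for thermogenesis in mice, had 11.85, 12.00, 11.62, 11.93 and 11.72 in FXR BAT and 12.32, 12.34, 12.31, 12.35 and 12.20 in control BAT. The difference was -0.48 ± 0.07, to 71.8% of control (adjusted p = 9.25e-04, limma), and no FXR array reached the control range. FXR BAT 3, the array with the lowest muscle mean in its group, was the lowest for both genes.

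Of the enzymes and carriers of coenzyme A and fatty acids, Acot11 had the largest difference among the tested genes. The thioesterase gene had 10.32, 10.07, 9.17, 9.98 and 9.68 in FXR BAT and 10.91, 10.43, 10.94, 10.67 and 10.94 in control BAT. The groups did not overlap, and FXR arrays were spread more widely, with a coefficient of variation in intensity of 28.0% in FXR and 14.8% in control. It fell by 0.93 ± 0.19 to 52.4% of control (adjusted p = 0.00716, limma), at rank 16 from the lowest of all genes.

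Pank1, for coenzyme A synthesis, had 11.02, 11.14, 11.52, 11.34 and 11.20 in FXR BAT and 11.64, 11.82, 11.86, 11.83 and 11.78 in control BAT. All FXR arrays lay below all controls, and the gene fell by 0.54 ± 0.08 to 68.6% of control (adjusted p = 0.00152, limma). Fabp3, the fatty acid carrier, overlapped, with 10.97, 10.89, 11.48, 11.13 and 10.94 in FXR BAT and 11.24, 11.68, 11.48, 11.57 and 11.35 in control BAT. FXR BAT 3 stood as high as the middle control. The difference of -0.38 ± 0.12 passed the test narrowly (adjusted p = 0.0451, limma), and it was lost in 8 of 10 fits that each left out 1 array. A dimmer second probe set of Fabp3 ran the same way, with 8.94, 8.91, 9.34, 8.96 and 9.13 in FXR BAT and 9.20, 9.45, 9.35, 9.44 and 9.42 in control BAT.

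**Figure D2:**
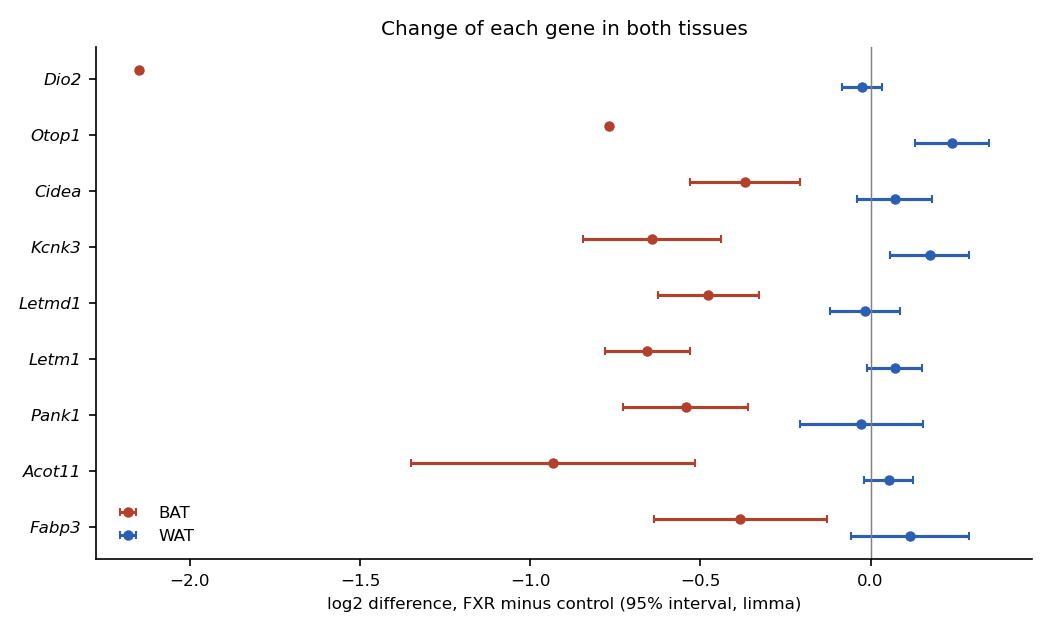
Difference of FXR minus control in log2(intensity + 1) for the 9 measured genes in BAT and in WAT, with 95% intervals from limma, except for Dio2 and Otop1 in BAT, which were chosen by that value and have none. BAT differences run from -2.15 (Dio2) to -0.37 (Cidea), and WAT differences from -0.03 (Dio2, Pank1) to 0.24 (Otop1).

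Because adipocyte genes as a group were lower in FXR BAT, levels were also set against the mean of the 18 mature adipocyte genes on each array, a setting chosen after the data were seen. Relative to that mean, Dio2 differed by -1.85 and Otop1 by -0.47. Acot11 was lower by 0.64, Letm1 by 0.36, Kcnk3 by 0.35 (adjusted p = 7.90e-04, limma), Pank1 by 0.25 and Letmd1 by 0.18 (adjusted p = 0.0335, limma), and these 5 tested genes kept their calls. The setting moved the median of all genes by 0.30, to 0.31, and with it 0.978% of all genes were called lower and 83.9% higher. Cidea (-0.07, adjusted p = 0.356, limma) and Fabp3 (-0.09, adjusted p = 0.416) did not pass. Whether the fibroblast and macrophage genes, which rose on the same arrays, have a part in these differences was not tested.

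The muscle genes moved with some of these genes within the groups. Over the 10 BAT arrays, deviations from the group mean correlated with those of the muscle mean at 0.81 for Letmd1, 0.81 for Acot11, 0.66 for Letm1, 0.53 for Otop1, 0.48 for Dio2, 0.09 for Kcnk3, -0.21 for Cidea, -0.47 for Fabp3 and -0.54 for Pank1, as a description over arrays that share 2 groups. With the endothelial mean they correlated at -0.77 for Letmd1, -0.71 for Acot11, -0.59 for Letm1, 0.56 for Fabp3 and 0.52 for Pank1, and between -0.41 (Kcnk3) and -0.16 (Otop1) for the other 4. With FXR BAT 1, 2 and 4 left out, the differences were -2.33 for Dio2, -0.81 for Otop1, -1.35 for Acot11, -0.76 for Letm1, -0.67 for Kcnk3, -0.63 for Letmd1 and -0.43 for Pank1. Of the 7 tested genes, Acot11, Letm1, Kcnk3, Letmd1 and Pank1 kept their calls, and Fabp3 (-0.25, adjusted p = 0.394, limma) did not.

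**Figure D3:**
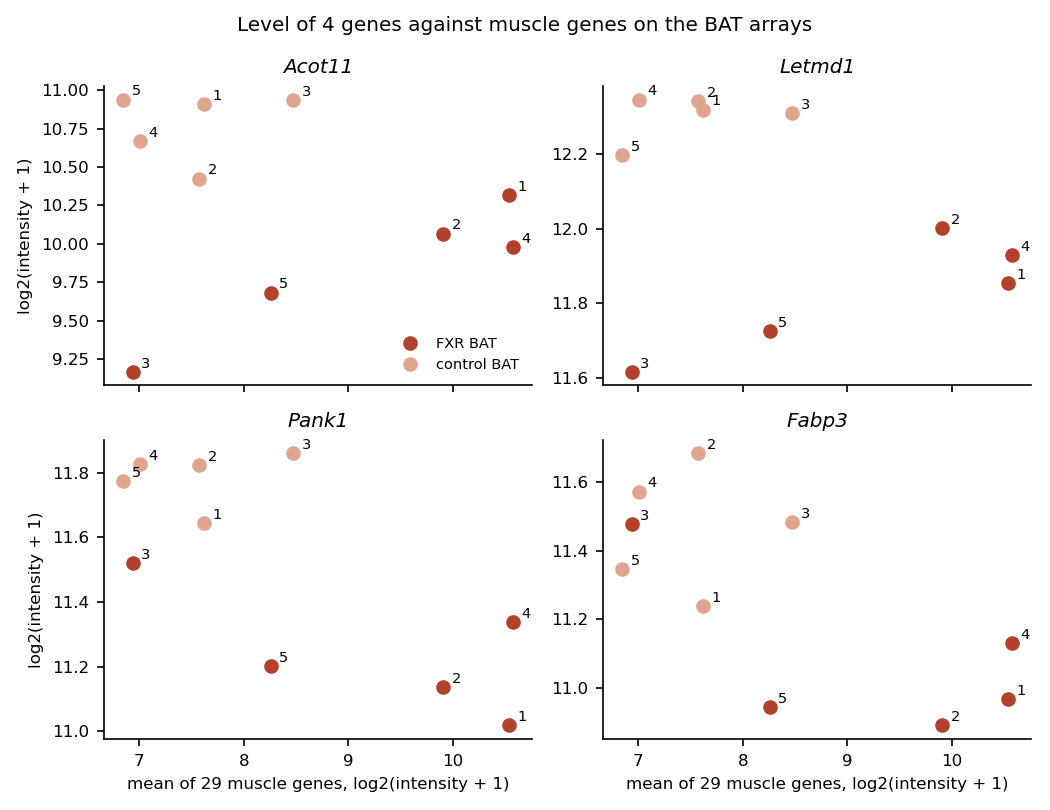
Level of Acot11, Letmd1, Pank1 and Fabp3 against the mean level of 29 skeletal muscle genes on the 5 FXR and 5 control BAT arrays, both axes as log2(intensity + 1). FXR BAT 3, at a muscle mean of 6.94, has the lowest Acot11 (9.17) and the highest Pank1 (11.52) of its group.

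Among themselves the genes did not vary as a single block. Over the same 10 arrays, within-group deviations of Letmd1 and Letm1 correlated at 0.89, of Pank1 and Fabp3 at 0.85 and of Cidea and Kcnk3 at 0.76. Acot11 ran against Fabp3 (-0.80) and Pank1 (-0.78). Deviations of Kcnk3 (0.84), Cidea (0.73), Letm1 (0.62) and Dio2 (0.56) followed the mean of the adipocyte genes, and those of Acot11 did not (-0.34). For Dio2 and Letm1 this was not particular to adipocyte genes. Dio2 correlated at 0.52 with the fibroblast, 0.50 with the white-selective, 0.48 with the muscle, 0.37 with the macrophage and -0.35 with the endothelial mean. Letm1 correlated at 0.66 with the muscle mean. The points share the array's RNA and hybridisation, and no test is given.

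**Figure D4:**
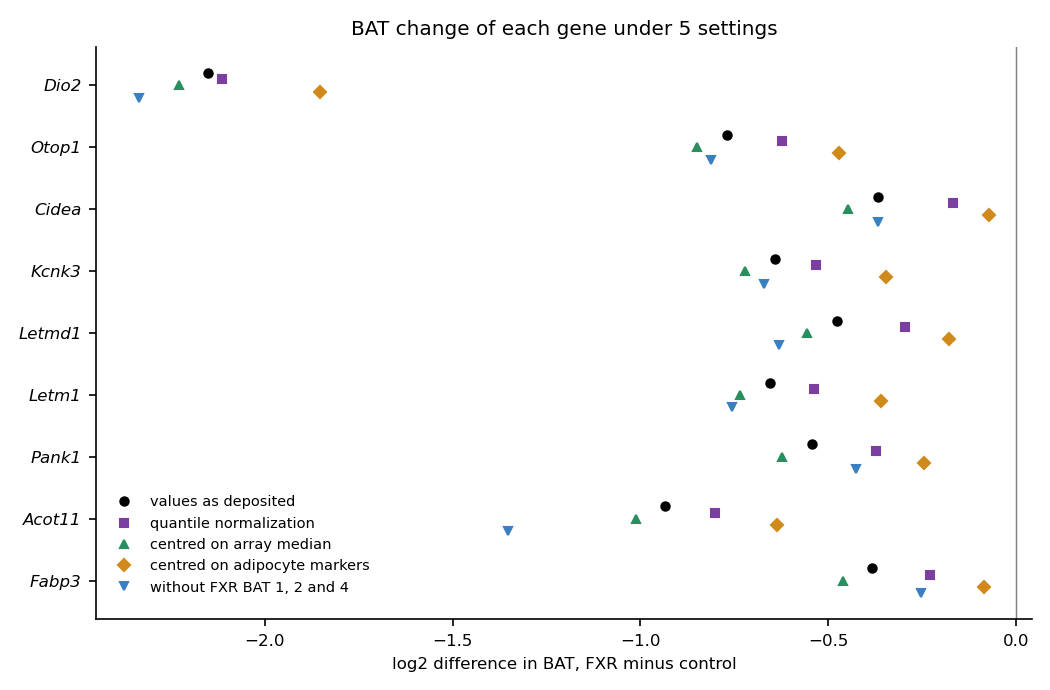
Difference of FXR minus control BAT in log2(intensity + 1) for the 9 measured genes under 5 settings, as deposited and 4 others. Dio2 stands at -2.15 as deposited, at -1.85 with values set against adipocyte genes and at -2.33 without FXR BAT 1, 2 and 4, while Cidea and Fabp3 reach -0.07 and -0.09 against adipocyte genes.

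The comparison of FXR with control WAT asked whether the same genes differed in white fat. Of the 9 measured genes, 0 passed the test, against 1.33% of all genes (0.456% lower and 0.873% higher), and 2 had an unadjusted p under 0.05 in limma. Dio2 had 5.80, 5.82, 5.79 and 5.80 on FXR WAT 1 to 4 and 5.82, 5.85, 5.83 and 5.81 on control WAT 1 to 4. All 8 of these levels were near the floor, as were those of Cidea and Acot11, so a change of these genes was not measurable there. Dio2 differed by -0.03 (95% interval -0.08 to 0.03, adjusted p = 0.772, limma).

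Otop1 had 6.20, 6.21, 6.29 and 6.33 in FXR WAT and 6.06, 5.90, 6.07 and 6.05 in control WAT. Its groups did not overlap, all control arrays were near the floor and no FXR array was. The difference of 0.24 (interval 0.13 to 0.35) had an unadjusted p of 0.00078 and an adjusted p of 0.0533 in limma, where 4.31% of all genes had no overlap in that direction. Kcnk3 had 6.70, 6.72, 6.50 and 6.62 in FXR WAT and 6.41, 6.42, 6.49 and 6.52 in control WAT, which overlapped, a difference of 0.17 (interval 0.06 to 0.29, adjusted p = 0.169).

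The other genes of the list did not pass either. Letmd1, not near the floor in white fat, had 7.70, 7.76, 7.71 and 7.67 in FXR WAT and 7.60, 7.76, 7.74 and 7.80 in control WAT, a difference of -0.02 (interval -0.12 to 0.09). Letm1 differed by 0.07 (-0.01 to 0.15) and Pank1 by -0.03 (-0.21 to 0.15), and neither gene was near the floor. Cidea differed by 0.07, Acot11 by 0.05 and Fabp3 by 0.12, with Fabp3 near the floor on 3 of 4 FXR and 4 of 4 control arrays. The second Fabp3 probe set lay above the floor bound on every WAT array and ran lower in FXR, with overlap. It had 6.65, 6.39, 6.40 and 6.23 in FXR WAT and 6.50, 6.66, 6.51 and 6.48 in control WAT. That set was not tested alone in WAT.

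Subtracting the BAT change from the WAT change, in a fit of all 18 arrays, asked whether the effect differed between tissues. This difference passed for 6 of 7 tested genes, all positive, where 4.44% of all genes were called in that direction and 6.46% in either. The 4 tested genes that were above the floor in WAT were all among them, Kcnk3 at 0.82 ± 0.12 (adjusted p = 7.23e-04, limma), Letm1 at 0.73 ± 0.07 (adjusted p = 3.79e-05), Pank1 at 0.52 ± 0.12 (adjusted p = 0.0186) and Letmd1 at 0.46 ± 0.09 (adjusted p = 0.00514). Of these 4 genes, all but Letmd1 lay close to the floor bound in WAT. With quantile normalization Kcnk3 and Letm1 were the only 2 of the 7 that passed. Acot11 (0.99 ± 0.23, adjusted p = 0.0148) and Cidea (0.44 ± 0.10, adjusted p = 0.0115) also passed, but with all their WAT levels near the floor the value restates their BAT difference and does not compare the tissues. Fabp3, near the floor on 7 of 8 WAT arrays, did not pass at 0.50 ± 0.16 (adjusted p = 0.0662). Dio2 at 2.12 ± 0.30, near the floor on all WAT arrays, and Otop1 at 1.01 ± 0.10, near it on all control WAT arrays, stand as descriptions.

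Between tissues, BAT over WAT, all 9 genes were higher in BAT in both genotypes, but 94.8% of all genes were called higher in control BAT and 95.1% in FXR BAT, since the arrays of the tissues were not on a common distribution. The median gene differed by 0.63 in FXR mice and 0.59 in controls. The ranks that follow are those of the measured values, and where WAT levels were near the floor (Dio2, Cidea and Acot11 in both genotypes, Otop1 in controls, Fabp3 on 7 of 8 arrays) the difference is compressed. Cidea ranked 2 from the highest in both genotypes, with a difference of 5.97 in FXR mice and 6.41 in controls. Fabp3, by its brighter probe set, ranked 7 in FXR mice and 6 in controls, and Pank1 ranked 8 in FXR mice and 7 in controls. The second Fabp3 probe set had a smaller gap between tissues. Its levels were 8.91 to 9.34 in FXR BAT and 6.23 to 6.65 in FXR WAT. In controls they were 9.20 to 9.45 in BAT and 6.48 to 6.66 in WAT. Dio2 ranked 3096 in FXR mice and 113 in controls, with a difference of 1.25 ± 0.12 in FXR mice and 3.37 ± 0.24 in controls. These sizes depended on how the tissues were scaled, and no fold between tissues is given. With quantile normalization Dio2 differed by 0.60 in FXR mice and 2.46 in controls, and with array median centring by 0.52 in FXR mice and 2.71 in controls. With quantile normalization Cidea differed by 4.95 in FXR mice and 5.32 in controls, and Acot11, at 3.81 in FXR mice and 4.79 in controls as deposited, by 2.78 in FXR mice and 3.72 in controls.

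Related genes were read next, from lists of relatives and pathway members that were drawn up with results of these data known. Their counts may thus not be independent of those results. In BAT, 8.75% of all genes were called lower and 7.01% higher, or 15.8% in either direction. Of 39 other brown adipocyte thermogenesis genes, 1 rose, 22 fell and 16 did not pass in BAT, with a median difference of -0.37. Without FXR BAT 1, 2 and 4 it was 1 higher and 16 lower, and without control BAT 2 and 4 it was 0 higher and 18 lower. Calls over all genes were also fewer in both settings. Elovl3, an elongase of fatty acids typical of brown fat, fell by 2.56 (adjusted p = 5.98e-04, limma), Mpzl2, a cell adhesion gene, by 0.68 (7.63e-05), Cox7a1, a cytochrome oxidase subunit, by 0.43, and Tbx5, a transcription factor gene, by 0.36. The gene that rose was Lhx8 (0.21), another transcription factor.

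Relatives of the genes by sequence family were read the same way. Of 43 measured paralogs, 0 rose, 6 fell and 37 did not pass in BAT, a share of 14.0% called. Over all genes 15.8% were called in either direction and 8.75% as lower. Otop2 (0.00) and Otop3 (0.03) did not pass, and of 13 other channels of the Kcnk family 0 passed in limma, with 1 at an unadjusted p under 0.05. Cidec, a lipid droplet relative of Cidea, fell by 0.39 (adjusted p = 0.0105, limma), where Cideb differed by -0.00. Pank3 fell by 0.47 (adjusted p = 0.0272), where Pank2 (-0.07) and Pank4 (0.10) did not pass, and Letm2 differed by 0.14 (adjusted p = 0.0729). Of 14 other acyl-CoA thioesterases 4 fell, Acot4 by 0.47, Acot2 by 0.45, Acot12 by 0.20 and Acot8 by 0.13. Acot1 and Acot2 are near-identical copies whose probe sets may share signal. Of 8 other fatty acid binding proteins 0 passed in limma, with 2 at an unadjusted p under 0.05, and Fabp4, the abundant adipocyte form, differed by -0.13.

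In the pathways around the genes, shares were mixed, where 8.75% of all genes were called lower and 7.01% higher. Of 20 genes of mitochondrial ion and volume control, 1 rose and 9 fell, with a median of -0.23, among them Ppif (-0.53), the cyclophilin of the permeability pore, Abcb8 (-0.50), a mitochondrial transporter, Mfn2 (-0.26), for mitochondrial fusion, and Chchd3 (-0.21), for cristae. Of 16 genes of coenzyme A synthesis and transport, 2 rose and 5 fell. Coasy, which makes the last steps of the synthesis, fell by 0.48 (adjusted p = 3.12e-04, limma), Slc25a16 by 0.41 and Ppcs by 0.18, while Enpp3 rose by 0.52. Of 29 genes of purine interconversion, the pathway of Gmpr, 0 rose and 4 fell, a share of 13.8%. Over all genes 15.8% were called in either direction and 8.75% as lower. The 4 purine genes were Pnp, which fell by 0.57, Adk by 0.32, Paics by 0.26 and Ak3 by 0.15.

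Around Dio2 stands the thyroid hormone axis. Of its 25 measured genes, 0 rose and 6 fell (24%), where 8.75% of all genes were called lower. The median was -0.05. Among those that fell were Sephs2 (-0.64), which makes the selenium donor for selenoproteins, the transporters Slc16a1 (-0.36) and Slc16a10 (-0.32), and Usp33 (-0.30). Dio1 (0.09, adjusted p = 0.273, limma) and Dio3 (-0.01, 0.912), the other deiodinases, did not pass, nor did the receptors Thra (-0.06) and Thrb (0.05). Dio2 is a selenoprotein, and of 23 others 2 rose and 4 fell, or 26.1% against 15.8% of all genes in either direction. Txnrd2 (-0.34) and Selenot (-0.32) fell, Selenon (0.26) and Selenom (0.21) rose. Without FXR BAT 1, 2 and 4 the thyroid list had 1 higher and 3 lower, and without control BAT 2 and 4 it had 0 higher and 3 lower. The first of these settings left 4 paralogs lower and 0 higher, 10 mitochondrial ion genes lower and 1 higher, 4 coenzyme A genes lower and 2 higher, 3 purine genes lower and 1 higher and 4 selenoproteins lower and 2 higher. The second left 2 paralogs lower and 0 higher, 7 mitochondrial ion genes lower and 1 higher, 1 coenzyme A gene lower and 2 higher, 1 purine gene lower and 1 higher and 3 selenoproteins lower and 2 higher. Calls over all genes fell in both settings too, from 3142 to 1416 in the second and by less in the first. The list counts are to be read beside that fall.

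**Figure D5:**
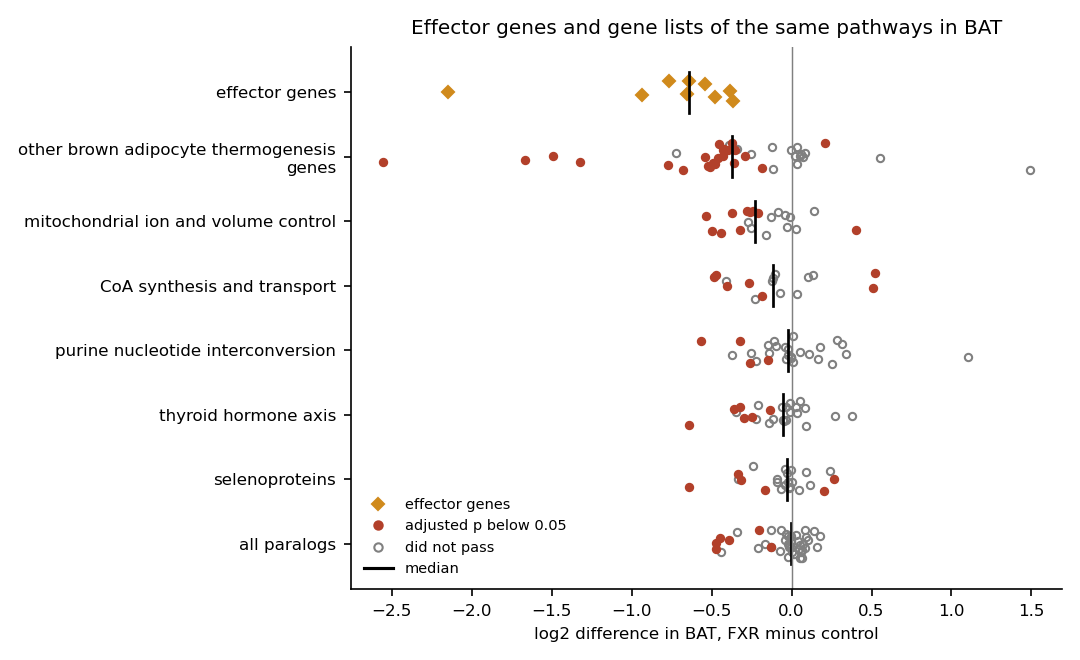
Difference of FXR minus control BAT in log2(intensity + 1) for the 9 measured genes and 7 lists of relatives and pathway members, with points for genes (filled where called in limma) and bars for medians. The median is -0.64 for the 9 genes, -0.37 for other thermogenesis genes and about 0 for paralogs. The 9 genes include Dio2 and Otop1, which were chosen by these values, so their median is not to be weighed against the lists.

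In WAT these lists held few calls, where 1.33% of all genes were called. Of the 39 thermogenesis genes 1 rose (Gys2, 0.94, a glycogen synthase) and 1 fell (Ebf2, -0.32, a transcription factor gene), and of the paralogs 1 fell (Acot2, -0.38). Thyroid axis, selenoprotein, coenzyme A, purine and mitochondrial ion lists had 0 calls in limma. At an unadjusted p under 0.05 there were 11 thyroid axis genes, 7 selenoproteins, 2 coenzyme A genes, 5 purine genes and 2 mitochondrial ion genes. The share of all genes at an unadjusted p is not given here. Counts at that threshold, in BAT as in WAT, are therefore not read as results. The difference of the changes between tissues, called for 6.46% of all genes, passed for 15 of the 39 thermogenesis genes and 5 of 20 mitochondrial ion genes, all positive. Of 16 coenzyme A genes 3 were positive, among them Coasy (0.49), and 1 negative, Vnn1 (-0.77), which encodes a pantetheinase. It passed, all positive, for 3 of 29 purine genes, 2 of 23 selenoproteins, 2 of 43 paralogs (Acot12 and Cidec) and 1 of 25 thyroid axis genes, Slc16a1 (0.76), and the last 2 shares, 4.65% and 4%, are under that of all genes.

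The genes whose levels were most like those of Dio2 over the 18 arrays, among 9603 candidates, were Cnnm2 (Pearson's r 0.979), Dhrs9 (0.970), Elovl3 (0.970) and Nr1h3 (0.969), and those like Otop1 were Snx10 (0.999), Mrpl4, Eif2ak1 and Tomm40 (0.998 each). These likenesses carry the contrast between tissues. By deviations from the group mean, Mkks (0.854), Vamp3 (0.851), Ppargc1a (0.836), the coactivator gene of mitochondrial biogenesis, and Trmt10c (0.822) were most like Dio2, and Gas2l1 (0.814), Icam1 (0.788), Gnai1 (0.770) and Vps37c (0.769) most like Otop1. Dio2 hardly varied in WAT, with an SD of 0.01 in FXR and 0.02 in control, against 0.27 in FXR BAT and 0.59 in control BAT. Its likeness by deviations thus rests mainly on the BAT arrays. All these genes were picked as the highest of 9603 candidates, and no test is given.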

How the data were processed

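Total RNA of 18 adipose samples was labelled, from 500 ng per sample, and hybridised to Affymetrix mouse gene arrays, per the labels' protocols. The intensities that the authors deposited, 1 value for each probe set of an array, lie on a linear scale. Their normalization method: not given in the sources used here. Of the probe sets, 21640 had 1 gene symbol, 1321 several and 11799 none listed, and 19937 genes were left after the brightest probe set of each was taken. Symbols came from the platform annotation; 21553 gene IDs were found in the RefSeq gene table and 0 symbols changed.

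log2(intensity + 1) was tested (two-sided) in R 4.3.3 with limma 3.58.1, by its lmFit and eBayes functions, with Benjamini-Hochberg adjustment over all genes and a threshold of 0.05; no gene was filtered. FXR was compared with control over 10 BAT arrays and over 8 WAT arrays, and the difference of both and the tissue contrasts used the group means of the arrays concerned. The number of arrays limits the precision. The test was also tried on simulated data with known changes. All 10 members were named, with up to 4 called genes of smallest adjusted p from each list, plus the 4 genes most like Dio2 and Otop1; other genes, such as Lhx8, Dio1, Thra and Fabp4, were named after their values were seen. The members, lists and tests were chosen with earlier results of these data known. Alternatives were quantile and median centring, another pseudocount (16), a filter on dim genes, means of probe sets, leaving out arrays, array weights and, chosen after the data were seen, centring on adipocyte genes, leaving out libraries for the lists and the difference between tissues, and the dimmer Fabp3 probe set.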

Additional observations from a re-analysis of the deposited data

Results flagged for a closer look

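Each gene was looked at on the arrays of each group, 36 sets in all, and in 4 sets 1 array stood apart, where chance alone would mark about 1 set in 20. Otop1 on control WAT 2 was 5.90, against 6.05 to 6.07 on the other controls. Letmd1 on control BAT 5 was 12.20, with the others at 12.31 to 12.35. Pank1 on FXR WAT 1 was 6.60, above 6.22 to 6.28, and Fabp3 on the same array was 6.29, above 5.94 to 5.97. The difference between tissues, WAT change minus BAT change, passed its limma test for Kcnk3 (0.82), Letm1 (0.73), Pank1 (0.52) and Letmd1 (0.46), which were above the floor in WAT. All of these but Letmd1 lay close to the floor bound there. The difference between tissues also passed for Acot11 (0.99) and Cidea (0.44). Their WAT levels were all near the floor, so that these values restate the BAT difference. For Otop1 it was 1.01 and was not tested: every FXR BAT array lay below its controls, and every FXR WAT array above, with all control WAT arrays near the floor.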

How the results depend on the processing

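In BAT the count of tested genes called, 7 of 7, was 5 to 7 under the other settings and 6 to 7 when each array was left out in turn, and the sign of all 9 differences held throughout. Fabp3 lost its call with quantile normalization (-0.23, adjusted p = 0.216, limma), the replicate block (0.0507) and without control BAT 2 and 4 (0.278), and Cidea with quantile normalization (-0.17, 0.0938). In WAT the count of 0 of 9 became 1 with dim genes filtered (Otop1, adjusted p = 0.0397) or with array weights (Otop1, 0.0310) and 2 with adipocyte centring (Otop1, 0.0172, and Kcnk3, 0.0338), and stayed at 0 to 0 when each array was left out. The difference between tissues, 6 of 7, was 6 to 7 when arrays were left out and 2 with quantile normalization; Pank1 lost it without FXR BAT 1, 2 and 4 (0.0837). In the WAT change, the sign turned for Fabp3 with mean of probe sets (-0.0023), for Letmd1 without control WAT 4 (range -0.059 to 0.0087 over left-out arrays), for Pank1 without FXR WAT 3 (-0.11 to 0.014), and with adipocyte centring for Dio2 (0.089), Letmd1 (0.098) and Pank1 (0.088). Over all genes, 3142 calls in BAT became 4852 with array median centring, 16918 with adipocyte centring, which moved the median of all genes by 0.30, 1913 without FXR BAT 1, 2 and 4, 1416 without control BAT 2 and 4, and 2198 to 3685 over left-out arrays. The 265 calls in WAT became 403 with dim genes filtered, 411 with all 18 arrays in the fit, 414 with array weights, 865 with adipocyte centring and 49 to 336 over left-out arrays (49 without control WAT 1, 54 without control WAT 2, 64 without control WAT 4, 105 without FXR WAT 1, 109 without FXR WAT 4 and 129 without FXR WAT 2). The 1288 calls for the difference became 908 to 1690. Quantile normalization left 11558 of 19292 calls between control tissues and 11080 of 19224 between FXR tissues. The cause of these moves was not tested. Deviations of same-numbered FXR and control samples correlated at -0.49 to 0.28 for BAT and at 0.0085 to 0.16 for WAT. Those of BAT and WAT samples of the same number and genotype correlated at -0.083 to 0.26, above 0 in 7 of 8 and over 0.1 in 5 of 8, and 6 of the 8 BAT arrays correlated best with the WAT array of their own number, a hint from the data that the labels do not settle. Not every pair was over 0.1, so the samples were not treated as paired. No fit of the difference between tissues joined BAT and WAT samples of the same number, so a shared mouse was not examined there. The replicate block joined FXR and control samples of the same number within a tissue. With that block 6 genes were called in BAT, 0 in WAT and 6 for the difference. Signal over background limits WAT, where Dio2, Cidea and Acot11 were near the floor on all arrays.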
